A study of Mus musculus with 24 samples.

Results

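Among 18 kidneys of mgb-/- mice, the 6 with the highest signal of Lcn2 were set against the 6 with the lowest, across all genes and whatever their grade of hydronephrosis. The mgb-/- (megabladder) mouse carries a mutation that leaves the bladder atonic, so urine is retained and the kidneys become hydronephrotic to a variable degree. All mice were male and age-matched and were labelled young adult, though the study's methods give an age of only a few weeks, and the other genotype was mgb+/+ (6 control kidneys). The mgb-/- kidneys had been graded by ultrasound, from the parenchyma that was preserved, as mild (7), moderate (5) or severe (6). The RNA of each whole kidney had been hybridized to its own array, 24 arrays in all, and the sources used here do not say which kidneys came from the same mouse.

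Lcn2 encodes lipocalin 2 (NGAL), a small secreted protein that binds bacterial siderophores and so withholds iron. Injured tubules, above all of the thick limb and collecting duct, release it into urine, and it is widely measured as a marker of tubular injury. It is also an acute-phase protein, a class of secreted proteins whose genes respond to interleukin 6, interleukin 1 and the transcription factors STAT3, NF-kB and C/EBP.

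Levels are given as the log2 signal of a gene's brightest probe minus the 75th percentile of its array, so 0 is that percentile and a difference of 1 is 2-fold. Lcn2 has a single probe, well above background on all 24 arrays. Its level chose the kidneys and is given as a description. The high-Lcn2 kidneys were moderate replicate 1 (6.59), severe replicate 5 (5.48), moderate replicate 4 (5.30), moderate replicate 3 (4.29), severe replicate 1 (2.05) and severe replicate 2 (1.79). The low-Lcn2 kidneys were mild replicates 1 (-0.32), 4 (-0.64), 7 (-0.69) and 5 (-0.87) and moderate replicates 2 (-1.05) and 5 (-1.16). Just outside the upper limit lay severe replicate 4 at 1.72, and just outside the lower limit mild replicate 6, which differed from mild replicate 1 by 0.0018. The 6 control kidneys ranged from -1.34 to -0.35, so all but 1 of the low-Lcn2 kidneys lay within their range, and that 1, mild replicate 1, lay just above it.

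**Figure D1:**
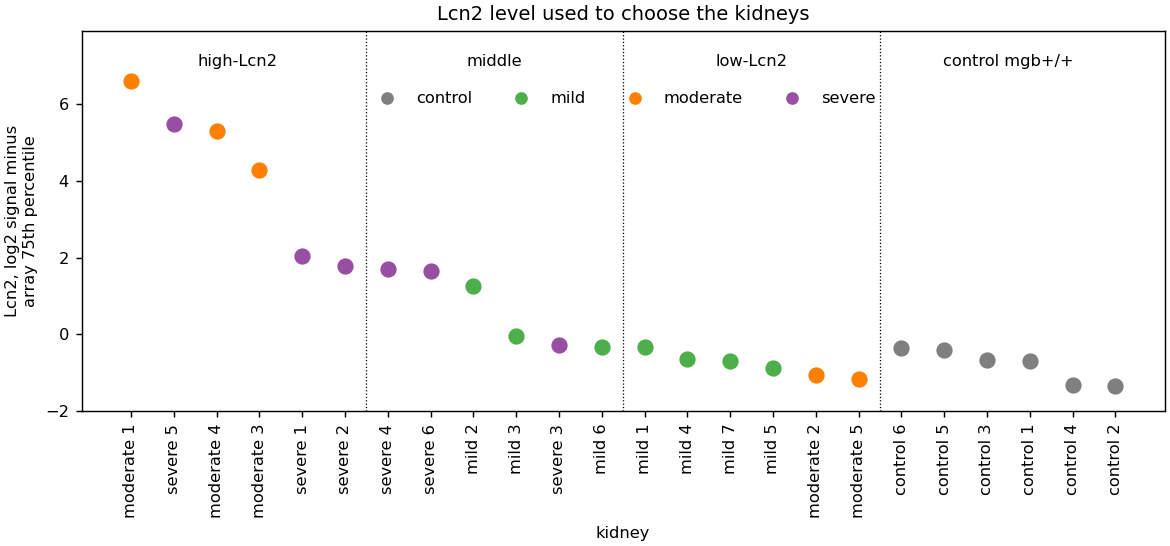
Lcn2 level (log2 signal minus the array's 75th percentile) of each kidney, with the 18 mgb-/- kidneys in falling order and the 6 control kidneys at the right. Colours mark the hydronephrosis grade and dotted lines part the groups. 4 kidneys sit between 4.29 and 6.59, above the other mgb-/- kidneys, and both sides hold moderate kidneys.

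The high-Lcn2 side held 3 moderate and 3 severe kidneys and no mild one, and the low-Lcn2 side 4 mild and 2 moderate kidneys and no severe one. With the grades coded 1 for mild, 2 for moderate and 3 for severe, the mean was 2.5 on the high side and 1.33 on the low side, a difference of 1.17 (two-sided exact permutation test, p = 0.0216). The moderate kidneys thus fell at both ends and none in between, whereas the middle 6 were 3 mild and 3 severe kidneys. Grade and Lcn2 level overlap in part, and the differences below belong to kidneys grouped by a measured gene, not to an assigned condition. A fit over the 18 mgb-/- kidneys with grade as a covariate is therefore given where it ends a call or moves a list. As no mild kidney was high and no severe kidney low, that fit rests on the 5 moderate kidneys and on differences to the middle group.

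Of 27964 genes tested, 673 (2.41%) were higher and 225 (0.805%) lower in the high-Lcn2 kidneys, at an adjusted p under 0.05 (limma, Benjamini-Hochberg over all genes) and a difference of at least 2-fold. Genes that met both are said to have risen or fallen. Without the fold minimum, 1372 genes (4.91%) were higher and 2824 (10.1%) lower, so lower genes were more numerous and mostly moved by less than 2-fold. The median over all genes was -0.08. All 6 high-Lcn2 kidneys lay above all 6 low-Lcn2 kidneys for 490 genes (1.75%), and below them for 1020 (3.65%). The mean of the middle kidneys, which were on neither side, lay between the means of the groups for 628 of the 673 genes that rose (93.3%) and for 209 of the 225 that fell (92.9%), against 42.8% of all genes. Genes that rose or fell were picked for wide gaps between those means, where another mean falls more readily. These shares are therefore no evidence of a graded relation to Lcn2. The low-Lcn2 mean lay within the control kidneys' range for 445 genes that rose (66.1%) but for 71 that fell (31.6%), against 71.8% of all genes. Without severe replicate 5 the counts were 430 higher and 98 lower, and without moderate replicate 5 they were 441 and 137. Kidneys ranked again after scaling by the array median gave 439 and 29. Calls of named genes that ended when 1 of the 12 kidneys was left out, or with grade in the fit, are given where the genes are described, with the number of kidneys whose removal, one at a time, ended the call and the highest adjusted p. With the 12 kidneys fitted alone in limma, without the middle and control kidneys, 38 of 82 named genes no longer passed. Among them were Timp1, Saa2, Upk2, C3 and Fgg (adjusted p = 0.0503, 0.0534, 0.056, 0.069 and 0.0934).

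Severe replicate 5 stood apart from the other high-Lcn2 kidneys for many genes, and its values are therefore named where they set a range. The share of probes well above background was 58.7% to 70.7% on the high-Lcn2 arrays and 61.4% to 64.5% on the low-Lcn2 arrays. The high-Lcn2 kidneys lay on 3 slides (3, 1 and 2 kidneys) and the low-Lcn2 kidneys on 2 of them (3 and 3). In whole-kidney RNA, fewer cells of a type and less RNA per cell cannot be told apart. Genes typical of the adrenal gland were high in 1 kidney of each group (moderate replicate 1 and mild replicate 4, where the log2 of their summed linear levels was 8.002 and 8.036) and at most 2.34 in the other 10. All 7 adipose genes of the list had positive differences, with a median of 2.12. None of them or of the 7 adrenal genes passed the adjusted p under limma, and 1 adipose and 0 adrenal genes were under 0.05 unadjusted. For adipose genes the summed level overlapped between the groups (5.93 to 8.37 in high-Lcn2 and 3.87 to 8.45 in low-Lcn2 kidneys). The part of either tissue in the results was not tested.

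The genes that the study itself named as injury candidates in these kidneys moved with Lcn2, and 8 of the 9 rose, with a median difference of 3.93. The study chose them on the same kidneys, so their count is not independent evidence of a direction. Havcr1, which encodes kidney injury molecule 1 on the surface of injured proximal tubule cells, was at -1.29 to 4.16 (median 0.88) in the high-Lcn2 and -3.08 to -2.33 (median -2.75) in the low-Lcn2 kidneys. The highest value was that of severe replicate 5, the groups did not overlap, and the difference of 3.77 ± 0.60 (SE), adjusted p = 0.00095 was 13.7-fold. The low-Lcn2 kidneys overlapped with the control kidneys (-3.50 to -2.56). Severe replicates 3 and 6, which were in the middle by Lcn2, had Havcr1 levels of -3.48 and -3.07, within the control range.

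Sprr2f and Sprr2g encode small proline-rich proteins of the cornified envelope, the cross-linked layer of squamous epithelia. Sprr2f showed the largest rise of all genes, from -8.14 to -4.87 (median -7.57) to -2.81 to 4.43 (median 0.46), a difference of 7.46 ± 1.13 (SE), adjusted p = 0.000892. Only 2 low-Lcn2 kidneys were well above background for it. Sprr2g rose by 5.51 ± 0.74, and both genes separated the groups without overlap. The Sprr2 genes are near copies of one another, so a probe may bind more than 1 of them.

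Il1f6 encodes interleukin 36 alpha, an epithelial cytokine of the interleukin 1 family. Its level was -4.06 to 1.85 (median -0.89) in the high-Lcn2 kidneys, where moderate replicate 1 was highest. No low-Lcn2 kidney was well above background, so the rise is at least 21.9-fold. All 6 high-Lcn2 kidneys were, which alone admits the probe to the fit (5 or more arrays). Its adjusted p (limma, 0.00058) is therefore no added support. Timp1, an inhibitor of matrix metalloproteinases, went from -3.52 to -1.16 (median -2.53) to -1.03 to 5.17 (median 1.38), a difference of 3.93 ± 0.70 (SE), adjusted p = 0.0019. For Havcr1, Il1f6, Sprr2f and Timp1 alike, severe replicates 1 and 2 were the lowest of the high group and the other 4 kidneys stood above them, as they did for Lcn2. The study picked these 4 genes by setting 3 moderate and 1 severe kidney of high Ngal against the mgb-/- kidneys of low Ngal. The 4 highest kidneys here have those grades, so this order is not independent evidence.

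**Figure D2:**
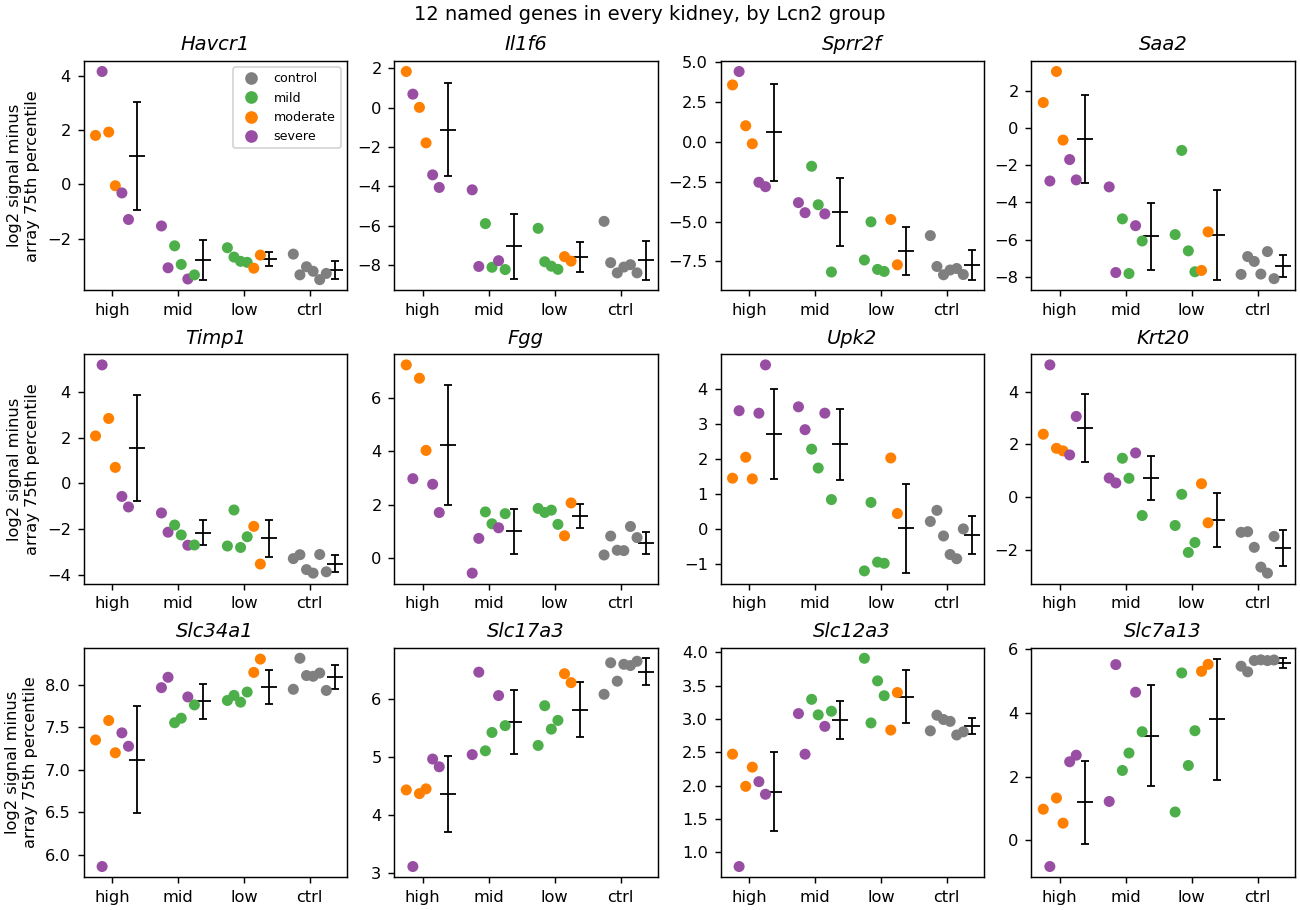
Level (log2 signal minus the array's 75th percentile) of 12 genes in each kidney of the high-Lcn2, middle, low-Lcn2 and control groups, 6 kidneys each, coloured by grade, with the mean and SD as bars. Havcr1 and Timp1 are high in the high-Lcn2 kidneys and near the control level elsewhere, while Upk2 is as high in the middle kidneys, and Slc7a13 is spread over the low-Lcn2 kidneys from 0.89 to 5.53.

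Acute-phase genes formed the group closest to Lcn2 in function, and 11 of the 21 tested rose while none fell, with a median difference of 1.67. Over all genes 2.41% rose and 0.805% fell. Saa2, Serpina10, Fgg and Itih4 of this list are also study candidates, picked by Ngal level in these same kidneys. Their part of the count is therefore not independent evidence. Saa2, a serum amyloid A protein, was -2.84 to 3.06 (median -1.16) in the high-Lcn2 and -7.73 to -1.19 (median -6.17) in the low-Lcn2 kidneys. Mild replicate 4 reached -1.19, above 3 of the high-Lcn2 kidneys, so the groups overlapped despite a difference of 5.17 ± 1.07 (SE), adjusted p = 0.00429. Serpina3n, a serine protease inhibitor, rose by 3.36 ± 0.59 with no overlap. Cp encodes ceruloplasmin, the copper enzyme that oxidizes iron for export, and its levels of 2.02 to 4.28 (median 3.33) all lay above the low-Lcn2 levels of 0.85 to 1.63 (median 1.01). It rose 4.31-fold (adjusted p = 0.000947). Serpina10, an inhibitor of coagulation factor X, rose by 2.81 ± 0.55.

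Fgg, the gamma chain of fibrinogen, was 1.71 to 7.23 (median 3.50) in the high-Lcn2 kidneys, and its 3 highest values were those of the moderate kidneys (7.23, 6.73 and 4.03). The low-Lcn2 kidneys lay at 0.84 to 2.06 (median 1.75) and overlapped with severe replicate 2 at 1.71. The difference was 2.65 ± 0.69 (SE), adjusted p = 0.0133, and with grade in the fit it was 3.51 ± 0.66 (adjusted p = 0.00831). Itih4, an inter-alpha-trypsin inhibitor heavy chain, was the study candidate that did not pass, at 2.37 ± 0.93 (SE), adjusted p = 0.0891. The study had set 4 kidneys of high Ngal against the mgb-/- kidneys of low Ngal, which is not the grouping used here. With the 4 highest kidneys against the 6 lowest, a grouping chosen after seeing the data, Itih4 differed by 3.76 ± 0.80 (limma, adjusted p = 0.00534). Its values were -2.80 to 2.58 (median 0.42) in the high-Lcn2 kidneys, where severe replicates 1 and 2 lay among the low-Lcn2 kidneys (-4.09 to -0.06 (median -2.16)). After scaling by the array median 5 acute-phase genes rose, and 3 rose when the 12 kidneys were fitted alone. Without moderate replicate 5, 1 or 4 the counts were 6, 6 and 7.

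Complement genes were higher in part. C3, the central component, went from 3.47 to 4.54 (median 3.72) to 4.07 to 7.68 (median 6.03), a difference of 2.01 ± 0.48 (SE), adjusted p = 0.00866. Of 19 complement genes 3 rose, C3, Cfi and Cfp, the last 2 encoding the protease and the properdin that restrain and stabilize the convertase. Serping1 (the C1 inhibitor) passed the adjusted p with a difference of 0.84 ± 0.19, under 2-fold. The count of rises was 1 without severe replicate 5 or moderate replicate 5, and 5 without severe replicate 1 or severe replicate 2. The calls of Cfi (without any 1 of 9 kidneys, adjusted p up to 0.103 without moderate replicate 1) and Cfp (without moderate replicate 5, adjusted p = 0.0534) ended, and that of Cfp ended with grade in the fit (adjusted p = 0.218). When the 12 kidneys were fitted alone with limma no complement gene passed the adjusted p, and 8 were under 0.05 unadjusted.

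Signaling genes of the interleukin 6, interleukin 1 and NF-kB pathways all had positive differences, 28 of 28, with a median of 0.83, against 11248 of the 27964 genes overall. Rises were seen for 8, namely Il1f6, Il6, Il1r2, Il11, Socs3, Osmr, Lif and Il1r1. Of these, Il1f6 is also a study candidate, picked by Ngal level in these same kidneys. The call ended for Il6 (without any 1 of 9 kidneys, adjusted p up to 0.143 without severe replicate 5), and with grade in the fit those of Il6, Lif and Il11 ended (adjusted p = 0.254, 0.115 and 0.0652). Osmr, the receptor subunit for oncostatin M, was 1.04 to 2.69 (median 1.49) in the high-Lcn2 and -0.68 to 0.95 (median 0.31) in the low-Lcn2 kidneys, without overlap (1.44 ± 0.25 (SE), adjusted p = 0.00152). Il1r1, the signaling receptor of interleukin 1, was nearly uniform in 5 of the high-Lcn2 kidneys (-0.60 to -0.46) and 0.27 in severe replicate 5, and all were above the low-Lcn2 kidneys (-2.13 to -1.18 (median -1.41)). Stat3 was higher by 0.86 ± 0.17 (adjusted p = 0.00313), under 2-fold, and its groups did not overlap.

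Promoters are shown for Lcn2 and 4 genes described above, because factors of these pathways have known binding letters. The 4 are Sprr2f of the study candidates, Saa2 and Serpina3n of the acute-phase list and C3 of the complement list. None of the 4 is a member of the signaling list. Sequences are from RefSeq (build GRCm38.p6) and cover 300 bases around the first listed start of the gene, 5′ to 3′ on the gene's strand. Capitals mark letters of 1 of 4 motifs, searched on both strands: STAT (TTCNNNGAA), AP-1 (TGANTCA), C/EBP (TTGCNNAA) and NF-kB (GGNNTTTCC). 13100 of the genes tested had a promoter in the table.
Lcn2, chr2:32387690-32387989, strand -, a C/EBP match: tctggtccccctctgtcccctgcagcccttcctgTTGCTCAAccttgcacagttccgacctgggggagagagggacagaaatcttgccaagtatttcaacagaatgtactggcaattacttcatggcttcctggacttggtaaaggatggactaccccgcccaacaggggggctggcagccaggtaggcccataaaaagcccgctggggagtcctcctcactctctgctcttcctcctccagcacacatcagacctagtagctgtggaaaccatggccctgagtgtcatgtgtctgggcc
Sprr2f, chr3:92364937-92365236, strand +, an AP-1 match: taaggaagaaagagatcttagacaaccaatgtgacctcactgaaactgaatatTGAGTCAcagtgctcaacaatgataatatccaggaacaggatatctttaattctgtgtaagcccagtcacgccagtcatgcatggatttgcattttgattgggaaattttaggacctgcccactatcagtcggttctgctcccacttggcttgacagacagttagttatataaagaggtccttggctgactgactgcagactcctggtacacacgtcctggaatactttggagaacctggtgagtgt
Saa2, chr7:46751583-46751882, strand +, a C/EBP match: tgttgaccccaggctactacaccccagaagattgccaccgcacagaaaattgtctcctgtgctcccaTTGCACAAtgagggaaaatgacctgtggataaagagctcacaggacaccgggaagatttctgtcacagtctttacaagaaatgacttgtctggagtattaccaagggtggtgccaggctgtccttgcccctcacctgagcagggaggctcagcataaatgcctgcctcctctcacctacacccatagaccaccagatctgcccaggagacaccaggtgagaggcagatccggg
Serpina3n, chr12:104406458-104406757, strand +, an NF-kB match: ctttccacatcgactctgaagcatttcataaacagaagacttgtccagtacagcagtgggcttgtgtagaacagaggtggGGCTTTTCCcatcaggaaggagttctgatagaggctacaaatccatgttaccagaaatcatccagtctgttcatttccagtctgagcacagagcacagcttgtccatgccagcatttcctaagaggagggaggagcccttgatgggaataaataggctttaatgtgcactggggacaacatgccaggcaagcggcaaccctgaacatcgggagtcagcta
C3, chr17:57228087-57228386, strand -, a C/EBP match: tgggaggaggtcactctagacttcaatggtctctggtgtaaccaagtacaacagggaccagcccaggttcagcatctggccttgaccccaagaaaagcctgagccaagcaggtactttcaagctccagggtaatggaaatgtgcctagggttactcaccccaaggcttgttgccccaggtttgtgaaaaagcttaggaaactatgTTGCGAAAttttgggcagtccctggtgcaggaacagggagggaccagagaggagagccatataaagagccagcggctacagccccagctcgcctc
Among the 419 genes that rose and had a promoter, 16.5% held the C/EBP letters against 8.98% of all 13100. The AP-1 letters were in 12.2% against 5.76%, the NF-kB letters in 7.40% against 5.83%, and the STAT letters in 7.16% against 7.32%. Of 134 genes that fell, 13.4% held the C/EBP, 5.97% the AP-1, 5.22% the STAT and 4.48% the NF-kB letters. In the acute-phase list 9 of 16 promoters held the C/EBP letters, in the interleukin and NF-kB signaling list 2 of 23, and among urothelial genes 1 of 13. The NF-kB letters were in 6 of 23 promoters of the signaling list and 2 of 16 of the acute-phase list. The STAT letters were in 6 of 23 and 4 of 16, and the AP-1 letters in 4 of 23 and 4 of 16. Of 13 urothelial promoters 1 held the NF-kB letters and none the STAT or AP-1 letters. The NF-kB letters were shortened by a leading G after the shares of the longer form had been seen. The longer form was rarer, set the genes that rose further apart from all promoters, and was in no promoter of a gene that fell. The promoters shown all hold a match, which most promoters of genes that rose did not. These shares are descriptions that depend on the letters chosen, and a match is not a binding site.

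Other tubular injury markers rose in part. The list counted 13 rises among 22 genes and no fall, with a median of 1.17, and its summed level ran from 8.70 to 10.035 in the high-Lcn2 and 7.77 to 8.23 in the low-Lcn2 kidneys. Krt20 and Krt18, keratins of simple and urothelial epithelia that injured tubules also express, rose by 3.48 ± 0.54 and 2.27 ± 0.30. Krt18 was 5.71 to 7.40 (median 6.32) in the high-Lcn2 kidneys and 3.86 to 4.73 (median 4.24) in the low-Lcn2 kidneys, a wide gap between the groups. Cdkn1a, Clu, Spp1, Sox9, Cd44, Plaur, Lgals3, Cryab and Krt8 were the other rises together with Ccl2 and Havcr1. Havcr1 and Krt20 also stand in the lists of candidates and of urothelial genes. The list counted 8 rises without severe replicate 5, 8 without moderate replicate 5, 8 after scaling by the array median and 6 when the 12 kidneys were fitted alone. Single calls that ended were those of Cdkn1a (without any 1 of 8 kidneys, adjusted p up to 0.107 without moderate replicate 5), Sox9 (without any 1 of 8 kidneys, adjusted p up to 0.0914 without severe replicate 5), Cd44 (without any 1 of 4 kidneys, adjusted p up to 0.0798 without moderate replicate 5), Cryab (without any 1 of 3 kidneys, adjusted p up to 0.0598 without moderate replicate 3) and Ccl2 (without moderate replicate 5, adjusted p = 0.0761). Those of Sox9, Ccl2, Cd44 and Cryab ended with grade in the fit (adjusted p = 0.199, 0.166, 0.165 and 0.118).

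Genes of the urothelium, the lining of the renal pelvis and urinary tract, rose as a block, 17 of 19 with a median of 2.66. Over all genes 2.41% rose. The study had listed many of these genes, uroplakins and keratins among them, as higher in severe than in mild kidneys of this series. As the high-Lcn2 side held severe but no mild kidneys, the count is not independent evidence. Trp63 did not pass, and Krt7 passed at less than 2-fold. Upk2, Upk3a and Upk1b encode uroplakins, the membrane plaques of its surface cells. Upk2 was 1.43 to 4.69 (median 2.68) in the high-Lcn2 and -1.20 to 2.03 (median -0.25) in the low-Lcn2 kidneys, a difference of 2.70 ± 0.60 (SE), adjusted p = 0.00591. Moderate replicate 2, a low-Lcn2 kidney, reached 2.03, above 2 of the high-Lcn2 moderate kidneys (1.45 and 1.43). The highest value was in severe replicate 2, which had the lowest Lcn2 of its group. Within the moderate grade the 3 high-Lcn2 kidneys exceeded the 2 low-Lcn2 kidneys by 0.41 for Upk2, 0.72 for Upk3a and 0.80 for Upk1b. For Havcr1 the difference was 4.07. The study had picked Havcr1 by Ngal level, with 3 moderate kidneys among its high ones, and the uroplakins by severe against mild grade. These differences were not tested, and the contrast between them is not independent evidence.

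With grade in the fit, 9 of the 19 urothelial genes rose and their median was 1.67. Upk2 then differed by 1.36 ± 0.56 (adjusted p = 0.13), Upk3a by 1.46 ± 0.60 (adjusted p = 0.13) and Upk1b by 1.67 ± 0.58 (adjusted p = 0.0733). Krt14 and Krt19, keratins of basal and of simple and intermediate cells, still rose, by 1.96 ± 0.50 and 2.33 ± 0.53. The acute-phase median was 2.34 in that fit, against 1.67 without grade, and 8 of its genes rose. Whether the change in estimate differs between the lists was not tested. The study had picked some genes of each list in these same kidneys, the urothelial ones by grade and the acute-phase ones by Ngal level. The contrast between the lists is therefore not independent evidence.

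**Figure D3:**
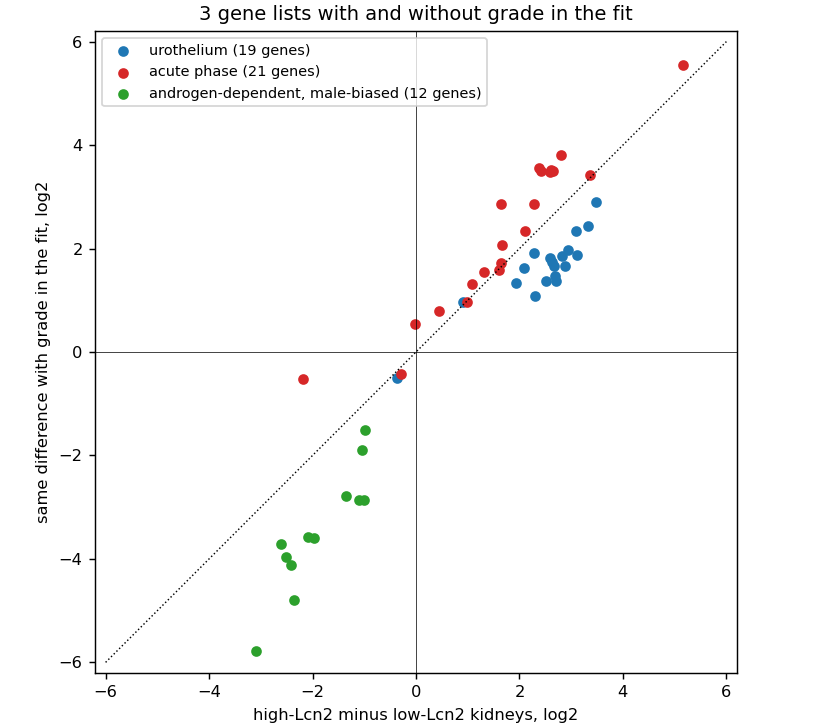
Difference between high-Lcn2 and low-Lcn2 kidneys (log2) of each gene in 3 lists, without grade in the fit (horizontal) and with it (vertical), with a dotted line of equality. Most urothelial genes lie below the line, most acute-phase genes on or above it, and male-biased genes below it at negative values.

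In the cornified envelope list 5 of 13 genes rose. Besides Sprr2f and Sprr2g these were Ivl (involucrin), Sprr1a and Krt17. Ivl was -1.79 to 1.61 (median -0.22) in the high-Lcn2 and -5.19 to -1.40 (median -3.39) in the low-Lcn2 kidneys, with moderate replicate 2 at -1.40. Within the moderate grade Ivl and Sprr1a differed by 1.18 and 0.99. With grade in the fit, 2 of the 13 rose, Sprr2f by 7.30 ± 1.59 and Sprr2g by 4.86 ± 1.00. Ivl, Sprr1a and Krt17 then no longer passed (adjusted p = 0.051, 0.0613 and 0.246), and the call of Krt17 (without any 1 of 6 kidneys, adjusted p up to 0.11 without severe replicate 5) also ended. Whether Sprr2f and Ivl differ in this was not tested. The study had picked Sprr2f and Sprr2g by Ngal level, and Sprr1a as higher in severe than in mild kidneys, of this series. Which of them passed with grade in the fit is therefore not independent evidence.

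Matrix genes rose in 10 of 29 cases, with a median of 0.82. Mmp7 (matrilysin) went from -7.29 to -4.57 (median -5.91) to -4.33 to 1.66 (median -1.42) without overlap (4.37 ± 0.74 (SE), adjusted p = 0.00151). Lox, which cross-links collagen, was -2.28 to 0.03 (median -1.72) in the high-Lcn2 and -4.60 to -3.02 (median -3.45) in the low-Lcn2 kidneys. The fibrillar collagens Col1a1 and Col3a1 and fibronectin (Fn1) did not pass, at 0.98, 0.81 and 0.94. The contractile genes Acta2 (smooth muscle actin) and Tagln (transgelin) rose by 1.61 ± 0.26 and 1.43 ± 0.22, and the groups did not overlap for either.

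Markers of smooth and striated muscle moved with them, and 3 of the 6 rose, namely Actg2, Cnn1 and Acta1. Actg2, an enteric and urinary tract smooth muscle actin, was 1.10 to 3.02 (median 2.35) in the high-Lcn2 and -3.85 to 0.85 (median -1.05) in the low-Lcn2 kidneys, and Cnn1 (calponin) rose by 2.11 ± 0.40. The summed level of the muscle list was 3.16 to 4.08 in the high-Lcn2 and 0.44 to 2.61 in the low-Lcn2 kidneys, and the part of muscle in the rise of Acta2 and Tagln was not tested.

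Genes of leukocytes had positive medians, but few passed the test. Of the macrophage and monocyte list 1 of 14 genes rose and 13 had positive differences, with a median of 0.83. The rise was of Cd14, a co-receptor for bacterial lipopolysaccharide that tubule cells also express. Cd14 was 1.58 to 4.42 (median 2.35) in the high-Lcn2 and -0.09 to 0.94 (median 0.66) in the low-Lcn2 kidneys, with no overlap (1.99 ± 0.34 (SE), adjusted p = 0.00152). Lyz2, Ms4a7, Lyz1, Mrc1 and Ctss followed at 1.21, 1.17, 1.16, 1.05 and 1.01, and the defining markers Adgre1 and Csf1r were at 0.65 and 0.01, and none of these passed. The list counted 6 rises without severe replicate 1 or severe replicate 2, 3 without moderate replicate 2, 9 with the 4 highest kidneys alone against the low-Lcn2 kidneys, and 6 with a slope on Lcn2 and grade. Without severe replicate 5 its median was 0.41.

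Of the neutrophil list 10 of 12 genes had positive differences, with a median of 1.12, or 0.53 without severe replicate 5. A single gene passed, Mpo (myeloperoxidase), which no low-Lcn2 array measured above background, so that its rise is at least 1.23-fold. The call of Mpo ended without severe replicate 5, without mild replicate 1 (adjusted p = 0.0816 and 0.0604) and with grade in the fit (adjusted p = 0.149). The list counted 2 rises without severe replicate 1, 3 without severe replicate 2, and 5 with the 4 highest kidneys alone against the low-Lcn2 kidneys. S100a8, an abundant transcript of neutrophils, had a difference of 2.03 ± 0.87 (SE), adjusted p = 0.128. Retnlg was not well above background on any low-Lcn2 array and was at least 3.46-fold higher, but did not pass (adjusted p = 0.0698). For S100a8 severe replicate 5 reached 3.71, and the other 5 high-Lcn2 kidneys were between -4.14 and -1.10. The summed neutrophil level overlapped between the groups (5.79 to 7.22 and 6.16 to 7.71). Neutrophils carry lipocalin 2 themselves, and their part in its signal was not tested.

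Of the lymphocyte list Cd79b rose (1.13 ± 0.24 (SE), adjusted p = 0.00451) and Lck was higher by 0.70 ± 0.16, under 2-fold. Without moderate replicate 5 Cd79b differed by 0.94, under 2-fold. Cd3e and Cd79a differed by 0.04 and -0.04 and did not pass. Among 17 chemokines Ccl2 and Ccl9 rose. Ccl2, which draws monocytes, was 4.02 in severe replicate 5 and -1.65 to 0.27 in the other 5 high-Lcn2 kidneys, and the low-Lcn2 kidneys (-3.92 to -0.85 (median -2.24)) overlapped with them. Without severe replicate 5 the difference of Ccl2 was 1.68 (adjusted p = 0.0481). The call of Ccl2 ended without moderate replicate 5 (adjusted p = 0.0761) and with grade in the fit (adjusted p = 0.166). That of Ccl9 ended without moderate replicate 5, severe replicate 5 or mild replicate 1 (adjusted p = 0.0659, 0.0611 and 0.0602) and with grade (adjusted p = 0.195). None of 23 interferon and antigen presentation genes and none of 21 cell cycle genes passed the adjusted p under limma, with medians of 0.12 and -0.02. Unadjusted, 2 and 0 of them were under 0.05.

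**Figure D4:**
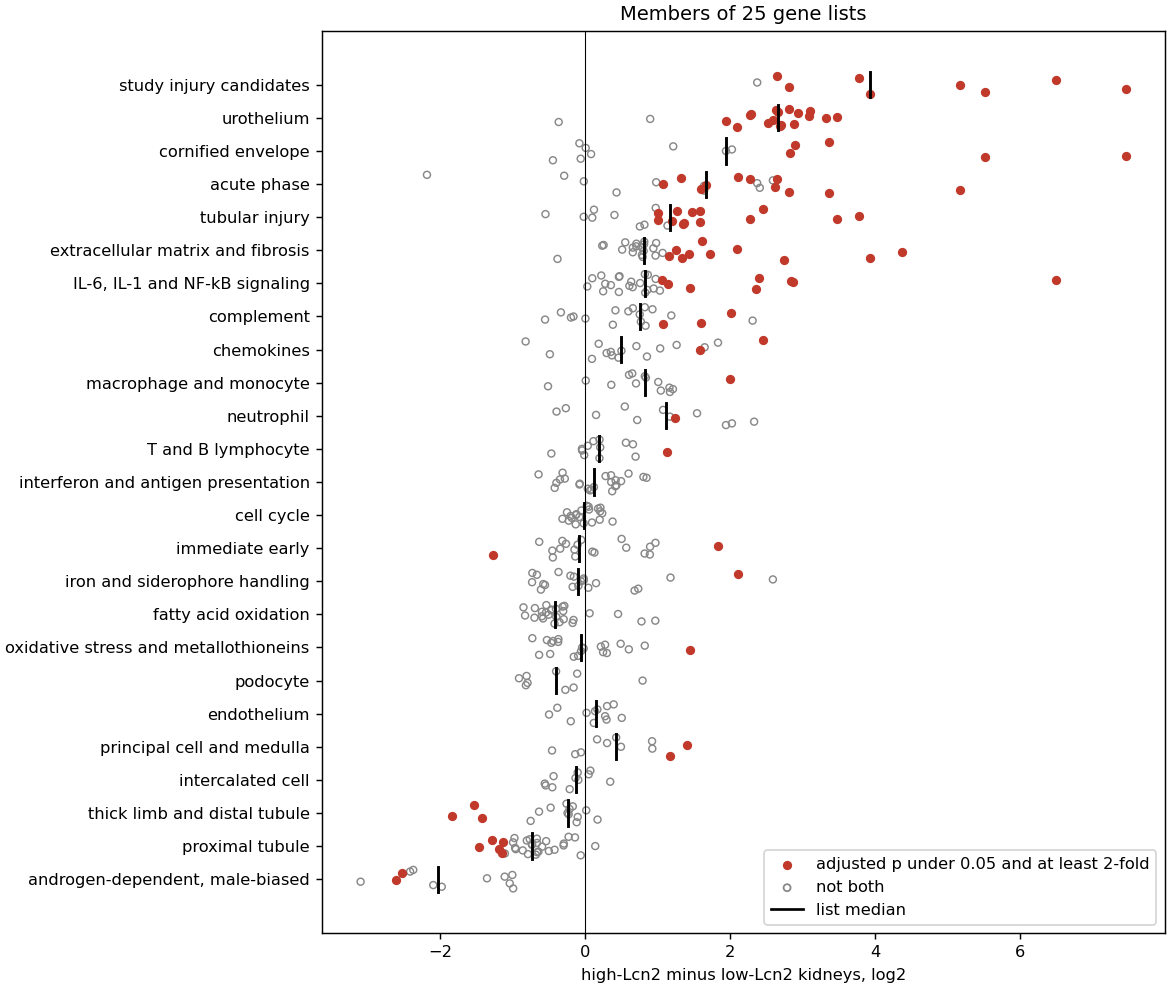
Difference between high-Lcn2 and low-Lcn2 kidneys (log2) of each member of 25 gene lists. Filled points passed an adjusted p under 0.05 with at least 2-fold, open points did not, and black bars are list medians. The urothelial median is 2.66, the acute-phase median 1.67, the proximal tubule median -0.73, and the cell cycle median lies near 0.

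Genes of the nephron fell along different segments. Of 31 proximal tubule genes 5 fell (Slc17a3, Dpep1, Slc22a6, Slc5a2 and Gatm), and 15 were lower at the adjusted p alone, with a median of -0.73. The summed level of the list was 10.52 to 12.004 in the high-Lcn2 and 12.055 to 12.5 in the low-Lcn2 kidneys, so the groups did not overlap. Slc17a3, an organic anion transporter, was 3.11 to 4.97 (median 4.44) in the high-Lcn2 and 5.20 to 6.44 (median 5.76) in the low-Lcn2 kidneys (-1.46 ± 0.28 (SE), adjusted p = 0.00304). Slc34a1, the phosphate transporter of the brush border, was lower by 0.86 ± 0.20 (adjusted p = 0.00782), under 2-fold, with severe replicate 5 at 5.86 and the other 5 high-Lcn2 kidneys between 7.20 and 7.58. The low-Lcn2 kidneys ranged from 7.79 to 8.30 (median 7.89). Lrp2 encodes megalin, the receptor that takes filtered proteins, lipocalin 2 included, back into the proximal tubule, and was lower by 0.73 ± 0.19 without overlap. Slc5a2, the glucose transporter SGLT2, fell by 1.15 ± 0.27. Without severe replicate 5, 2 of the 31 genes fell and 12 were lower at the adjusted p alone. Without severe replicate 1, and with grade in the fit, 8 fell. The call of Slc22a6 ended without moderate replicate 5 or moderate replicate 2 (adjusted p = 0.0614 and 0.0572), and that of Lrp2 with grade (adjusted p = 0.0913).

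Of 15 genes of the thick limb and distal tubule 3 fell, all of the distal convoluted and connecting segments. Slc12a3, the thiazide-sensitive cotransporter, was 0.79 to 2.47 (median 2.02) in the high-Lcn2 and 2.83 to 3.91 (median 3.37) in the low-Lcn2 kidneys, and no values overlapped (-1.42 ± 0.22 (SE), adjusted p = 0.000894). The control kidneys (2.76 to 3.06) lay between the groups and overlapped with the low side. The calcium-binding proteins Pvalb and Calb1 fell by 1.84 ± 0.38 and 1.53 ± 0.42. Calb1 did not pass with grade in the fit (adjusted p = 0.231). Umod, the uromodulin gene of the thick limb, had a difference of -0.11 ± 0.12 (SE), adjusted p = 0.624 that changed sign with the normalization, and its levels were 7.80 to 8.51 (median 8.18) and 8.02 to 8.62 (median 8.30). Among 11 principal cell and medullary genes Elf5 (a transcription factor) and Slc14a2 (the urea transporter UT-A) rose, by 1.41 ± 0.32 and 1.17 ± 0.27, Gata3 was higher by 0.93 ± 0.21, and Aqp2 at 0.43 did not pass. Without moderate replicate 5, Slc14a2 differed by 0.99, under 2-fold, and without moderate replicate 1 the list counted 4 rises. None of 11 intercalated cell genes passed the adjusted p under limma, and 1 was under 0.05 unadjusted.

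Podocyte genes were lower without reaching 2-fold. Of 9 tested, 5 were lower at the adjusted p, among them Ptpro, Nphs1 (nephrin), Podxl and Clic5, and Plce1 was higher. Nphs1 was -0.48 to 0.56 (median 0.29) in the high-Lcn2 and 0.54 to 1.50 (median 1.07) in the low-Lcn2 kidneys (-0.80 ± 0.19 (SE), adjusted p = 0.00757), and its low-Lcn2 values reached above those of the control kidneys (0.56 to 0.72). The calls of Clic5 (without any 1 of 6 kidneys, adjusted p up to 0.101 without moderate replicate 5) and Plce1 (without any 1 of 3 kidneys, adjusted p up to 0.0747 without moderate replicate 5) ended. With grade in the limma fit none of the 9 passed, and 5 were under 0.05 unadjusted. Of the endothelial genes Kdr, the main receptor of vascular endothelial growth factor, was lower by 0.49 ± 0.08 with no overlap, and the other 11 did not pass.

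Fatty acid oxidation genes were slightly lower, 7 of 26 at the adjusted p and none by 2-fold, with a median of -0.41. Cpt1a, which admits fatty acids to the mitochondrion, was 3.53 to 4.64 (median 4.39) in the high-Lcn2 and 4.74 to 5.05 (median 4.87) in the low-Lcn2 kidneys, and severe replicate 5 was lowest at 3.53. Etfdh and Etfa, electron carriers of the same pathway, were lower by 0.70 ± 0.19 and 0.59 ± 0.16. Without severe replicate 5, mild replicate 4 or moderate replicate 2, 3 of the 26 were lower at the adjusted p, and without moderate replicate 5, 2 were. After scaling by the array median none of the 26 passed under limma, and 11 were under 0.05 unadjusted. With grade in the fit 4 were lower and 2 higher, and Cpt1a and Etfa did not pass (adjusted p = 0.0647 and 0.0749). The call of Etfa (without moderate replicate 5, adjusted p = 0.0538) also ended. Among 21 oxidative stress genes Mt2, a metallothionein, rose by 1.45 ± 0.36, and Sod2, the mitochondrial superoxide dismutase, was lower by 0.63 ± 0.14. Hk2 (hexokinase 2) and Ankrd37 rose among 15 hypoxia genes, and Vegfa and Pgk1 were lower at -0.42 and -0.41. The calls of Hk2 (without any 1 of 5 kidneys, adjusted p up to 0.0852 without moderate replicate 5), Pgk1 (without any 1 of 5 kidneys, adjusted p up to 0.0874 without moderate replicate 5) and Vegfa (without severe replicate 2, adjusted p = 0.0505) ended.

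Genes of iron and siderophore handling mostly did not rise with Lcn2. Of 21, Cp rose and 6 were lower at the adjusted p, with a median of -0.09. Over all genes 10.1% were lower at the adjusted p, and the median was -0.08. Slc22a17, described as a receptor for lipocalin 2, was 2.70 to 2.94 (median 2.84) in the high-Lcn2 and 3.15 to 3.54 (median 3.39) in the low-Lcn2 kidneys, lower by 0.55 ± 0.08 (adjusted p = 0.000811), with no overlap, and the control kidneys were higher again (3.44 to 3.71). Bdh2, an enzyme linked to the making of a mammalian siderophore, was lower by 0.72 ± 0.17, and Slc11a2, an iron importer, by 0.57 ± 0.11. Tfrc, Lrp2 and Cubn were the other 3, and Lrp2 and Cubn also stand in the proximal tubule list. Of these 6 genes none reached 2-fold. The calls of Tfrc (without any 1 of 5 kidneys, adjusted p up to 0.0943 without severe replicate 5) and Cubn (without moderate replicate 5, adjusted p = 0.069) ended, and with grade in the fit those of Cubn and Lrp2 (adjusted p = 0.106 and 0.0913). After scaling by the array median 3 genes were lower.

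Immediate early genes did not move together. Of 20, Fosl1, an AP-1 subunit, rose (1.84 ± 0.60 (SE), adjusted p = 0.0421), Nr4a1 fell by 1.27 on the log2 scale, and Fosl2, Myc and Klf6 were higher by 0.90 ± 0.26, 0.89 ± 0.26 and 0.82 ± 0.26, under 2-fold. Fos, Jun and Egr1 did not pass, at -0.26, -0.45 and -0.63. After scaling by the array median none of the 20 passed under limma, and 5 were under 0.05 unadjusted. Calls ended for Fosl1 (without any 1 of 6 kidneys, adjusted p up to 0.127 without moderate replicate 5), Nr4a1 (without any 1 of 8 kidneys, adjusted p up to 0.102 without mild replicate 5), Klf6 (without any 1 of 7 kidneys, adjusted p up to 0.108 without severe replicate 5), Fosl2 (without any 1 of 3 kidneys, adjusted p up to 0.0771 without moderate replicate 5) and Myc (without any 1 of 3 kidneys, adjusted p up to 0.0663 without moderate replicate 5). Those of Nr4a1, Myc and Fosl1 ended with grade in the fit (adjusted p = 0.345, 0.0837 and 0.0596).

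Several of the largest falls were of genes with male-biased expression in the mouse kidney. All 12 of the male-biased genes tested had negative differences, with a median of -2.03, against 16716 of the 27964 genes overall. Of the 12, 2 fell, Slc7a13 and Cyp2j13. The study listed these 12 as lower, and the 6 female-biased genes below as higher, in these mgb-/- kidneys than in controls. The lists come from these data, so their counts are not independent evidence of a direction. Slc7a13, an amino acid transporter of the proximal straight tubule, was -0.83 to 2.67 (median 1.15) in the high-Lcn2 and 0.89 to 5.53 (median 4.35) in the low-Lcn2 kidneys, against 5.29 to 5.67 in the control kidneys. In the low-Lcn2 group mild replicate 1 (0.89) lay among the high-Lcn2 kidneys and moderate replicates 2 and 5 (5.31 and 5.53) at the control level. Cyp2j13, an epoxygenase, had a median of -0.23 in the high-Lcn2 kidneys and ran over -0.82 to 4.03 (median 2.46) in the low-Lcn2 kidneys, again lowest in mild replicate 1 and highest in moderate replicate 2 among the low-Lcn2 kidneys. With grade in the fit 9 of the 12 fell and the median was -3.59, Slc7a13 differing by -3.71 ± 1.03 and Cyp2j13 by -3.96 ± 0.99. Without severe replicate 5, without moderate replicate 5, and after scaling by the array median none of the 12 passed under limma, with 3, 3 and 6 under 0.05 unadjusted. None passed without mild replicate 4, moderate replicate 2 or moderate replicate 3 either (4, 3 and 5 unadjusted), whereas 5 fell without mild replicate 1 and 4 without mild replicate 7. The call of Cyp2j13 also ended without moderate replicate 1 (adjusted p = 0.0539) or mild replicate 5 (adjusted p = 0.0519). None of 6 female-biased genes passed under limma (median 0.38, 1 under 0.05 unadjusted). Their median was 1.44 with grade in the fit, and 1 rose, Abcc3 (2.36, adjusted p = 0.026), a transporter of conjugates.

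The other large falls shared that spread among low-Lcn2 kidneys. Gm4952, a glycine acyltransferase-like gene, was -5.02 to -3.44 (median -4.08) in the high-Lcn2 and -2.49 to 0.15 (median -1.74) in the low-Lcn2 kidneys, and the groups did not overlap (-2.62 ± 0.55 (SE), adjusted p = 0.00435). Slc22a30, an organic anion transporter gene, fell by 2.76 ± 0.84 and Pzp, a protease inhibitor, by 2.52 ± 0.76, both with overlap. The calls of Slc22a30 (without any 1 of 7 kidneys, adjusted p up to 0.0912 without severe replicate 5) and Pzp (without any 1 of 5 kidneys, adjusted p up to 0.0882 without moderate replicate 5) ended. Ces1g, a carboxylesterase, was not well above background on any high-Lcn2 array, so its fall is at least 4.08-fold, and its low-Lcn2 values ran from -6.61 to 0.12. Alb, the serum albumin gene, had the largest fall of the genes with a symbol, 3.66 ± 1.18 on the log2 scale (adjusted p = 0.0399). Mild replicates 7 and 5 and moderate replicate 5 stood at 1.12, 1.07 and -0.36, above all 6 control kidneys (-3.25 to -2.54). Of the 10 liver and pancreas genes Serpina1c rose and Alb alone fell. The calls of Alb (without any 1 of 7 kidneys, adjusted p up to 0.111 without severe replicate 5), Ces1g (without any 1 of 3 kidneys, adjusted p up to 0.0697 without moderate replicate 5) and Serpina1c (without any 1 of 2 kidneys, adjusted p up to 0.0579 without moderate replicate 5) ended, and with grade in the fit Alb did not pass (adjusted p = 0.373).

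Muc4 (a membrane mucin), Ereg (epiregulin, a ligand of the EGF receptor), Arhgap36 and Cxcl17 (a mucosal chemokine) were not well above background on any low-Lcn2 array. Muc4 rose at least 11.7-fold, Ereg at least 7.54-fold, Cxcl17 at least 7.41-fold and Arhgap36 at least 7.29-fold. For Muc4 the control kidneys ranged from -6.26 to -3.65 and the low-Lcn2 kidneys from -7.77 to -5.34 (median -6.70). Arhgap36 was -5.85 in severe replicate 2 and -2.73 to -1.36 in the other 5 high-Lcn2 kidneys.

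**Figure D5:**
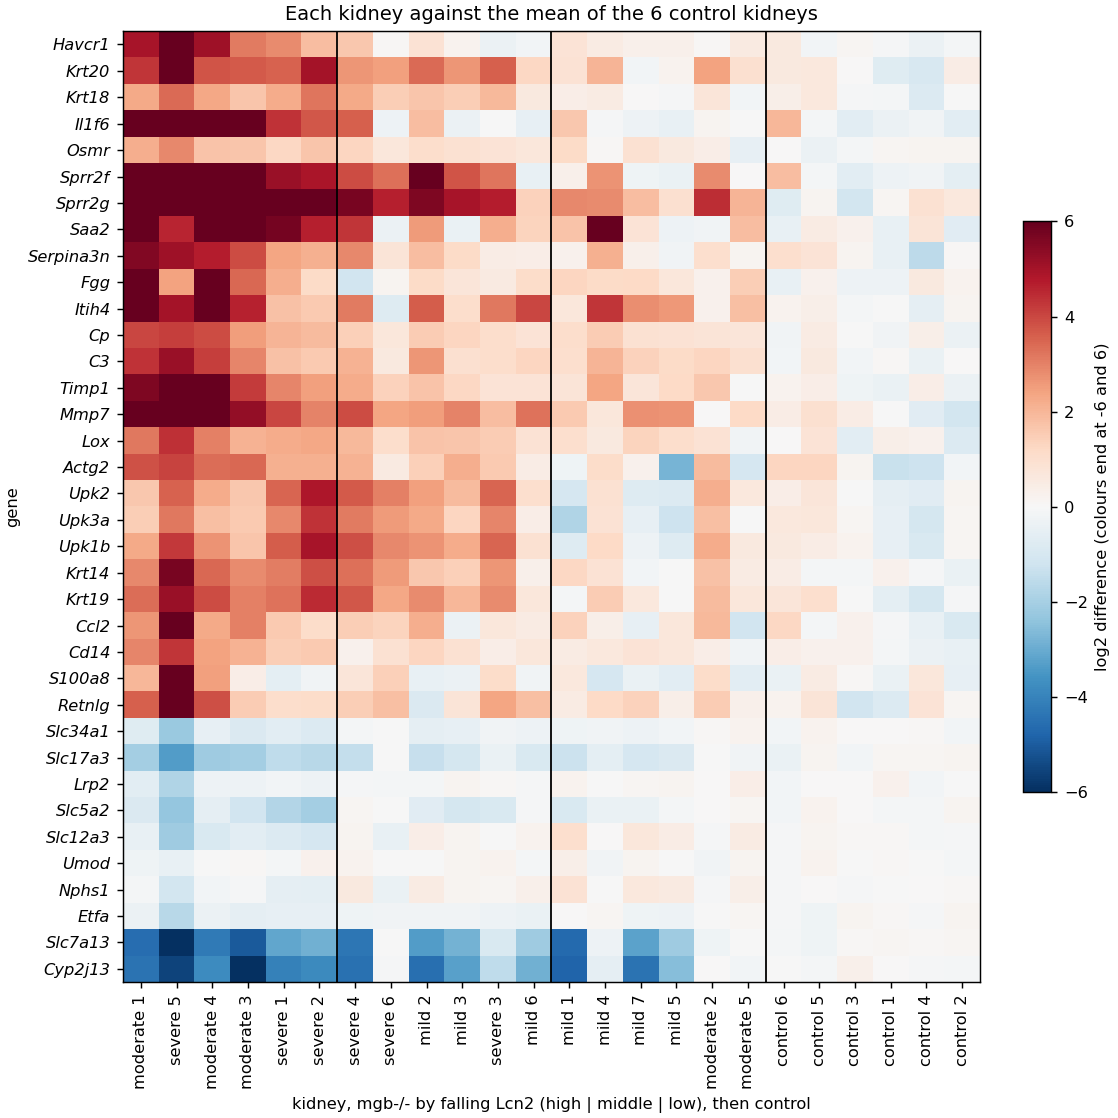
Difference of each kidney from the mean of the 6 control kidneys (log2, colours end at -6 and 6) for 36 genes, with the mgb-/- kidneys in falling order of Lcn2 and then the control kidneys. The 4 kidneys of highest Lcn2 carry the strongest injury and acute-phase rises, uroplakins are raised in several middle kidneys as well, and severe replicate 5 shows the lowest Slc34a1.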

How the data were processed

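RNA of 24 whole kidneys had been hybridized with a single dye, 1 kidney to an array, on 3 slides. The authors deposited the scanner output (Agilent Feature Extraction 10.10, per the submitters' processing notes), whose processed intensity has the background subtracted within the array. A table of normalized whole-number intensities that the authors also deposited (linear, method not given in the sources used here) served as an alternative. The processed signal was taken as log2 minus the array's 75th percentile. Outlier spots were dropped, and 38848 of 55681 probes, well above background on 5 or more arrays, entered the fit. Of all probes, 26762 were named by RefSeq accession (GRCm38.p6), 43 by the paper's tables, and 28876 kept their accession. A gene's brightest probe was used, and no spot was saturated.

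The 4 groups (high-Lcn2, middle, low-Lcn2, control; 6 kidneys each) were fitted in limma 3.58.1 (R 4.3.3), with Benjamini-Hochberg adjustment over 27964 genes; Lcn2 was left out. 324 genes lacked a value on an array. Fits were tested on simulated data. A group with no array well above background gives a lower bound, each such array being raised to its lowest signal well above background. This held for 37 of the 673 genes that rose and 7 of the 225 that fell. The other group can by itself admit such a gene to the fit, so its adjusted p is no added support. Values are not levels comparable between genes. Replicates have no stated animal of origin, so p-values measure the spread between these kidneys, and precision is limited by the number of arrays.

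The grouping, the 31 gene lists and the tests were chosen with earlier results of these data known. Named were the 9 study candidates, the 12 largest rises and falls, and per list the up to 4 lowest p and, for cell types, the first 3 members, and other members were named after their values were seen. The promoter motifs, and the NF-kB letters in a second form, were also chosen after seeing the data. Some genes that the rule names are not reported here. Alternatives tried were other normalizations, filters, probe rules, blocks, thresholds, groupings and each kidney left out.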

Additional observations from a re-analysis of the deposited data

Results flagged for a closer look

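For 82 of the named genes, the highest or lowest kidney of either group of 6 stood apart (a gap to its nearest neighbour of more than 0.625 of the group's range) in 21 of 164 group comparisons. Chance gives about 1 in 20, genes are not independent, and no cause was tested. Severe replicate 5 accounted for 11 of the 21. Among the high-Lcn2 kidneys it was the highest for Krt14 (2.09, next 0.27), Il1r1 (0.27, next -0.46) and Ccl2 (4.02, next 0.27). It was the lowest for Bdh2 (5.22, next 6.24), Slc34a1 (5.86, next 7.20), Lrp2 (5.46, next 6.60), Slc17a3 (3.11, next 4.37), Slc12a3 (0.79, next 1.87), Etfa (4.67, next 5.82), Sod2 (6.12, next 6.91) and Pzp (-2.51, next -0.09). Mild replicate 4 was, within the low-Lcn2 group, the highest for Saa2 (-1.19, next -5.58), Ereg (-6.07, next -7.17) and C3 (4.54, next 3.86) and the lowest for Gatm (4.04, next 4.47). Mild replicate 1 was, within the low-Lcn2 group, the highest for Il1f6 (-6.14, next -7.58) and Podxl (1.44, next 0.98). Moderate replicate 5 was, within the low-Lcn2 group, the lowest for Serping1 (3.83, next 4.80), Il1r1 (-2.13, next -1.46) and Myc (-1.55, next -1.18). Severe replicate 2 was, within the high-Lcn2 group, the lowest for Arhgap36 (-5.85, next -2.73).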

How the results depend on the processing

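Counts are given as genes higher and lower in the high-Lcn2 kidneys, against 673 and 225. They were 351 and 120 with normexp background correction, 451 and 105 with the authors' normalized table, 757 and 362 with a replicate block, 1372 and 2824 with no fold minimum, and 258 and 64 with the 12 kidneys fitted alone. With grade as a covariate they were 620 and 478, with a slope on Lcn2 501 and 131, and with that slope and grade 645 and 367. With kidneys ranked again they were 439 and 29 (array median scaling), 291 and 80 (normexp) and 398 and 76 (the authors' table). Leaving out each kidney gave 430 to 791 higher and 98 to 309 lower, the lowest both without severe replicate 5. Without moderate replicate 5 they were 441 and 137. Among alternatives chosen after seeing the data, the 3 high-Lcn2 against 2 low-Lcn2 moderate kidneys alone gave 40 and 3, and exchanging the kidneys at the lower or the upper limit gave 620 and 275 or 572 and 155. The labels do not say whether the replicate numbers pair the kidneys. Of 33 same-numbered pairs 9 deviated together (correlation over 0.1), with a median correlation of -0.037 and a highest of 0.538. Differently numbered pairs were not set beside them, so whether the block reflects more than a shared number was not tested.

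For 82 of the named genes, those run one by one, the alternatives gave 2934 values, of which 2483 kept their direction and side of the threshold, 428 no longer passed, 19 passed newly and 4 reversed. All 4 were of Umod, at 0.0323 with quantile normalization and again on re-ranking with it, 0.00035 re-ranked by the array median and 0.0225 re-ranked by the authors' table. The grade difference of 1.17 kept its direction and stayed under 0.05 (p 0.0173 to 0.0433) in all its alternatives. The causes of these changes were not tested. Weakly expressed genes near background limit the folds, as the bounds show.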
